A study of Mus musculus with 8 samples.

Results

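The 10 ADAMTS genes described here were Adamts1, Adamts2, Adamts4, Adamts5, Adamts9, Adamts10, Adamts12, Adamts15, Adamts16 and Adamts20, and every probe set annotated to a single one of these symbols was taken. That gave 18 probe sets for 9 of the 10 genes, out of 34958 probe sets and 18194 genes with a single symbol. Adamts2 had no such probe set and was not analysed here. The genes were selected on their fitted differences between mutant and control arrays, with those differences already known and that of Adamts16 foremost. Their values are therefore given as a description, and no test outcome for them is read as support.

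RNA was measured on 8 one-colour arrays, 1 array per mouse brain, at postnatal day 1. Small vessels with their pericytes had been pulled from dissociated brains with beads carrying an antibody to PECAM, an endothelial surface protein. Of the brains, 4 were wild type controls and 4 mutant brains carried a knock-in of PDGFRb with the D849V substitution, a form of PDGF receptor beta that signals without ligand. All 8 mice had a mixed 129S/J background, and whether the mutants carried 1 or 2 copies of the allele is not given in the sources used here. A knock-in acts wherever the gene itself is expressed, in pericytes and in other mesenchymal cells alike. The authors deposited log2 GCRMA values for probe sets, and a gene was tested if its brightest probe set exceeded 4 on at least 4 arrays.

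ADAMTS proteases are secreted zinc enzymes that are tethered to the extracellular matrix by thrombospondin type repeats and cut matrix proteins outside the cell. They are known for cutting the large proteoglycans of the lectican family, for trimming procollagens and for acting on fibrillin microfibrils. They are made as inactive precursors, activated by proprotein convertases such as furin, and held in check by TIMP3. In the developing brain their lectican substrates fill the space between cells, and in vessels they remodel the matrix around the endothelium.

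One gene of the family stood apart. Adamts16 was 4.41-fold lower in the mutant microvessels, and its groups did not overlap. With each gene taken by its brightest probe set this was the lowest difference among the 11446 tested genes, by 0.01 from the next, Atp10d at -2.13 (SE 0.378). Averaged over both probe sets, Adamts16 differed by -1.09. The proteoglycan-cutting enzymes differed by less: Adamts5 was lower on average by 0.87, Adamts15 by 0.48 and Adamts1 by 0.22 on the log2 scale, each with overlapping groups, while Adamts4 and Adamts9 were higher by 0.10 and 0.12. All 9 genes passed the filter on dim values, 7 had a negative difference and the median was -0.32, against a median of -0.11 and 69.1% negative over all tested genes. With limma and Benjamini-Hochberg adjustment over all 11446 genes, 1 of the 9 passed an adjusted p of 0.05, as did 4.58% of all tested genes (1.92% with the mutants lower). Without overlap and with the mutants lower there was again 1 of 9, against 10.4% of all tested genes. The contrast entered the choice of the genes, so nothing is read from these counts.

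**Figure D1:**
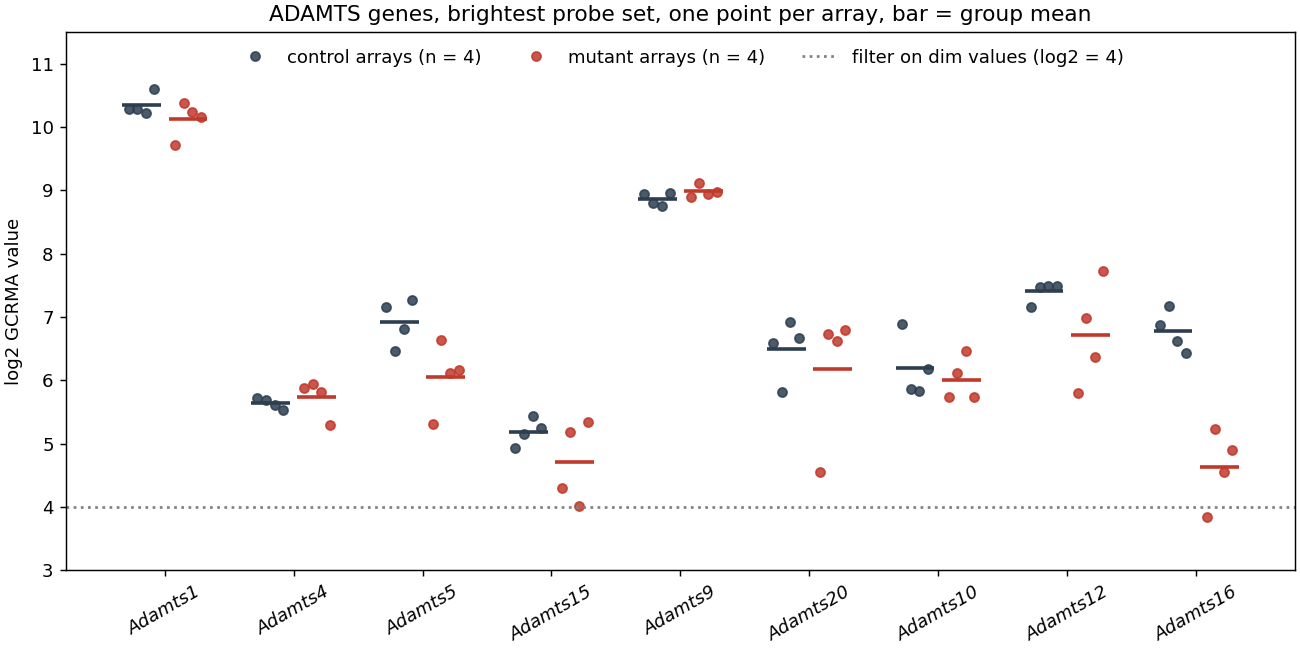
Log2 GCRMA value (vertical axis) of the brightest probe set of each of the 9 ADAMTS genes (horizontal axis), with 1 point per array, 4 control arrays in dark blue and 4 mutant arrays in red, and bars at the group means. The groups are apart for Adamts16, from 3.84 to 5.23 in mutants and from 6.43 to 7.18 in controls, and overlap for the other 8 genes.

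Promoter sequence is shown for Adamts1, Adamts12 and Adamts20, whose values were lowest on mutant array 1, while Adamts12 and Adamts20 varied most among mutants. The RefSeq promoter table, build GRCm38.p6, held 5 of the 10 genes, the others being Adamts4, Adamts5, Adamts10, Adamts15 and Adamts16. Each line gives the 250 bases before the transcription start, 5′ to 3′ on the strand of the gene, and capitals mark a match to a searched motif.
Adamts1 (GRCm38.p6, chr16:85803114-85803363, minus strand): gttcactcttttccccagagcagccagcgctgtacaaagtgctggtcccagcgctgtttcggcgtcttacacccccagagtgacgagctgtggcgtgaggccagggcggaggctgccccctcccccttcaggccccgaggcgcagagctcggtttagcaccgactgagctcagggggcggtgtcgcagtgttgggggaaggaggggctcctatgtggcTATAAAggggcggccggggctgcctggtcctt
Adamts12 (GRCm38.p6, chr15:11064523-11064772, plus strand): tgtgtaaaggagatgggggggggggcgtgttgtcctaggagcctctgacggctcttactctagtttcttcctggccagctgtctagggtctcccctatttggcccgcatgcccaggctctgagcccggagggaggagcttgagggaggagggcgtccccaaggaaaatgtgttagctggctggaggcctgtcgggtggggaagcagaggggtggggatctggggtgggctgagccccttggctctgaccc
Adamts20 (GRCm38.p6, chr15:94404351-94404600, minus strand): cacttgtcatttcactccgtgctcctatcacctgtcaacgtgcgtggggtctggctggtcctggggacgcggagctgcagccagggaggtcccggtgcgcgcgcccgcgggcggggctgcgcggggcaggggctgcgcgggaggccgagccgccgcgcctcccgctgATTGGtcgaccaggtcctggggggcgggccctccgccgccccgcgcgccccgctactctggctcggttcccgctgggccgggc
Both strands were searched for the gamma-activated site (TTCNNNGAA), the AP-1 site (TGANTCA), the TATA box (TATAAA) and the CAAT box (CCAAT). Adamts1 held 1 TATA box match, found in 12.4% of the 32851 windows of the table, and Adamts20 held 1 CAAT box match, found in 33.8%. The first 2 motifs occurred in 7.02% and 6.75% of windows and in none of these 3 promoters, which says only that these letters are not in this stretch. The windows had 65.6%, 63.2% and 76.4% G and C for Adamts1, Adamts12 and Adamts20, against a median of 52.4%.

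Adamts16 is the nearest relative of Adamts18, and its substrates are less well defined than those of the proteoglycan-cutting enzymes. Its brighter probe set read 3.84, 5.23, 4.56 and 4.91 on mutant arrays 1 to 4. On control arrays 1 to 4 the same probe set read 6.88, 7.18, 6.62 and 6.43. The highest mutant array thus lay below the lowest control array, and mutant array 1 alone fell under the filter level of 4. The mutant mean was 4.63 ± 0.60 and the control mean 6.78 ± 0.33 (SD, n = 4 each), which differ by -2.14 (SE 0.296). Without mutant array 1 the difference was -1.88. The other probe set of Adamts16 lay under the filter on all 8 arrays, with a range of 0.13 over them, and so neither repeats nor contradicts the difference. With the mean of both probe sets the difference was -1.09. Its relative Adamts18 was at the floor of the values on every array and was not tested.

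Adamts5 is a main aggrecan- and versican-cutting enzyme and lies beside Adamts1 on chromosome 16 with no other protein-coding gene between them in GRCm38.p6. Its brightest probe set read 5.32, 6.64, 6.11 and 6.16 on mutant arrays 1 to 4. The control arrays gave 7.17, 6.47, 6.81 and 7.27. Mutant array 2 exceeded control array 2, and the other 3 mutant arrays lay below every control. The difference was -0.87 (SE 0.286), -0.63 without mutant array 1 and -1.07 without mutant array 2. With the mean of its probe sets, 1 of them at the floor, it was -0.33. A second probe set differed by -0.37 (SE 0.318), with a mutant mean of 6.13 ± 0.26 and a control mean of 6.50 ± 0.68 (SD, n = 4 each). The next, annotated to the same source sequence as the brightest, spanned only 0.26 over the 8 arrays and differed by -0.08. The remaining one lay at the floor on every array. The probe sets of Adamts5 above the floor thus all had negative differences, of unlike size. Those of -0.37 and -0.08 were about as large as their SE (0.318 and 0.0813), so their direction is not resolved. On the second probe set the lowest of the 8 values was on control array 2, at 5.63.

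**Figure D2:**
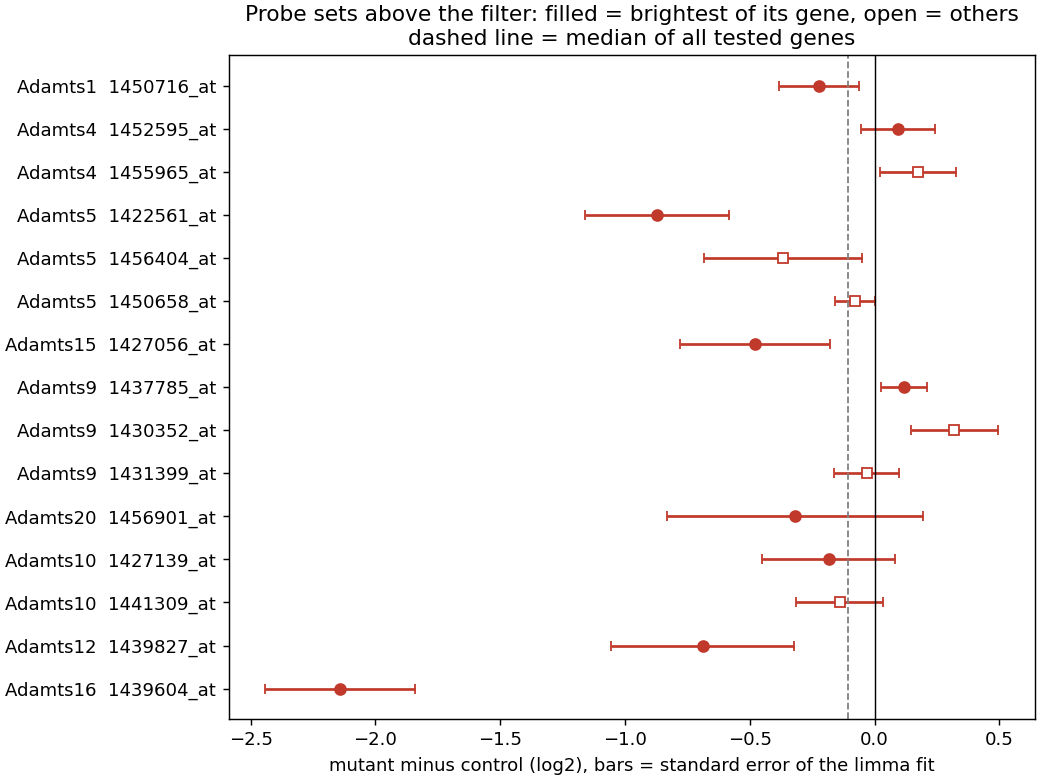
Mutant minus control difference on the log2 scale (horizontal axis) with the standard error of the limma fit over all probe sets as bars, for the 15 of 18 ADAMTS probe sets above the filter (rows, with their array identifiers). Filled circles are the brightest probe set of a gene and open squares the others. The brightest probe set of Adamts16 lies at -2.14 and the other rows between -0.87 and 0.32.

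Adamts1, which cuts versican and other matrix proteins and is induced in vessels by many stimuli, had 1 probe set. It read 9.72, 10.38, 10.24 and 10.16 on mutant arrays 1 to 4, and 10.28, 10.29, 10.22 and 10.60 on the control arrays. Mutant array 1 was lowest and the other mutant arrays lay among or just below the controls. Its difference of -0.22 (SE 0.157) became -0.09 without mutant array 1. Adamts15, another versican-cutting enzyme, read 4.30, 5.19, 4.01 and 5.35 on the mutant arrays and 4.93, 5.16, 5.43 and 5.24 on the controls. Mutant arrays 1 and 3 lay below every control, and mutant arrays 2 and 4 lay among them. Its mutant mean was 4.71 ± 0.66 and its control mean 5.19 ± 0.21 (SD, n = 4 each). The difference of -0.48 was -0.25 without mutant array 3, -0.34 without mutant array 1 and -0.69 without mutant array 4.

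Adamts4, the aggrecan-cutting enzyme also known from reactive brain tissue, went the other way by a small amount. Its brighter probe set read 5.89, 5.94, 5.81 and 5.30 on the mutant arrays and 5.73, 5.69, 5.61 and 5.53 on the controls. On 3 mutant arrays it exceeded every control, and mutant array 4 lay below every control. The dimmer probe set differed by 0.17 (SE 0.153) and the brighter by 0.10 (SE 0.146), both less than the SD of the mutant arrays, 0.28 and 0.29. The difference of the brighter one was 0.24 without mutant array 4 and 0.03 without mutant array 2.

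Adamts9 and Adamts20 form a pair that shares a domain with the worm protein GON-1, and Adamts9 cuts versican and is a gene of vascular endothelium among other cells. By brightest probe set, Adamts9 was the steadiest of the 9 genes. Its brightest probe set read 8.90, 9.13, 8.94 and 8.98 on the mutant arrays and 8.95, 8.80, 8.76 and 8.96 on the controls. The groups overlapped, with a difference of 0.12 (SE 0.0899), and the 8 arrays spanned 0.36. A second bright probe set differed by 0.32 (SE 0.175) and spanned 1.03, and the dimmest differed by -0.03. Adamts20, known from the belted coat colour mutants of mice, read 4.55, 6.74, 6.63 and 6.80 on the mutant arrays. Its control values were 6.59, 5.81, 6.93 and 6.66. Mutant array 1 stood alone, and the other mutant arrays lay among the controls. The difference of -0.32 therefore rested on that array and was 0.23 without it.

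Adamts12, which cuts cartilage oligomeric matrix protein, read 5.80, 6.98, 6.36 and 7.73 on the mutant arrays and 7.16, 7.47, 7.49 and 7.50 on the controls. Of the mutants, 3 lay below every control and mutant array 4 above every control. Its mutant SD of 0.83 was larger than its difference of -0.69 (SE 0.365). That difference was -0.38 without mutant array 1 and -1.03 without mutant array 4. The other probe set of Adamts12 lay at the floor on all arrays. Adamts10, which binds fibrillin microfibrils, read 5.74, 6.12, 6.46 and 5.73 on the mutants and 6.89, 5.87, 5.84 and 6.18 on the controls. These values overlapped broadly, with differences of -0.18 (SE 0.264) and -0.14 (SE 0.174) on its 2 probe sets, the first of which turned to 0.05 without control array 1.

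With mutant array 1 included, spread was larger among mutant than control arrays for most of these genes, as for most tested genes. The mutant SD exceeded the control SD in 7 of the 9 genes, against 59.5% of all tested genes, and in 4 of the 9 once mutant array 1 was left out, against 46.2%. By brightest probe set, mutant array 1 was the lowest mutant array for 6 of the 9 (Adamts1, Adamts5, Adamts9, Adamts12, Adamts16 and Adamts20). The same held for 45.6% of all tested genes, so it stood low in general. On the second probe set of Adamts9 mutant array 1 was instead the highest of the 8, at 7.21. On that of Adamts5 the lowest mutant was array 4, at 5.86. Without mutant array 1 the median difference of the 9 genes was -0.09, against -0.07 over all tested genes, and 6 of them stayed negative. Adamts16 kept groups without overlap in that setting, as did 11.7% of all tested genes with the mutants lower.

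**Figure D3:**
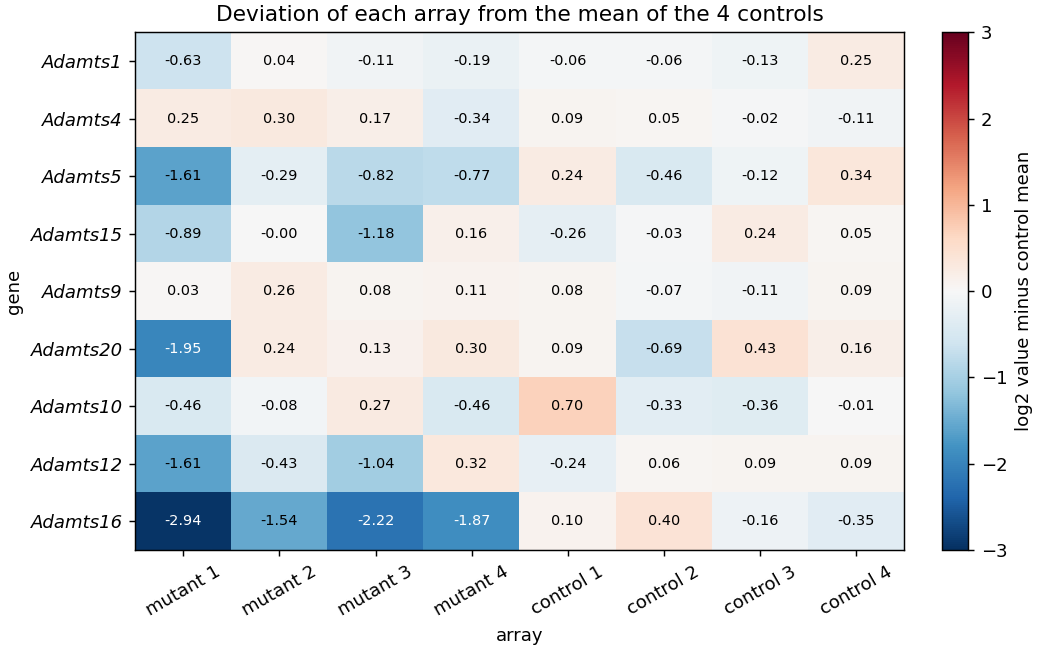
Log2 value minus the mean of the 4 controls (colour scale and printed value) for the 9 ADAMTS genes (rows) on each of the 8 arrays (columns). Adamts16 is negative on all 4 mutant arrays, from -2.94 to -1.54, whereas Adamts20 is far from 0 on mutant array 1 alone among the mutants, at -1.95.

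Markers of other cells moved with mutant array 1. The mean log2 value over the 11 of 12 meningeal and fibroblast markers tested was 8.77 there, the lowest of the 8 arrays, against 9.23 to 9.72 on the other mutants and 9.18 to 9.56 on the controls. Array 1 of the mutants was also lowest for the pericyte list (9.54, all 12 markers tested), the smooth muscle list (9.003, 6 of 8, beside 9.005 on control array 1), the astrocyte and radial glia list (9.26, all 8), the oligodendrocyte lineage list (7.34, 5 of 6) and the choroid plexus list (8.87, all 7). Neuron markers, all 10 of them tested, read 7.45 on mutant array 1, and their lowest array was control array 2, at 7.02. Control array 2 was also the lowest control for the astrocyte list (9.70) and the choroid plexus list (8.99). On mutant array 1 endothelial markers, all 12 of them tested, read 12.13 against 11.63 to 12.38 over all arrays. The 11 of 12 microglia and macrophage markers tested read 10.22 there, the highest of the 8. In bulk RNA fewer cells of a type and less RNA per cell cannot be told apart, and the part of these cells in the low ADAMTS values of that array was not tested.

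Between the groups, the fibroblast list had 1 gene higher (Twist1, a mesenchymal transcription factor) and none lower, and its marker Mfap4 was under the filter. Its means ran from 8.77 to 9.72 in mutants and from 9.18 to 9.56 in controls. Pericyte list means were 9.54 to 9.95 in mutants and 9.64 to 10.07 in controls, with Higd1b higher and the brighter Pdgfrb probe set lower. Pdgfrb is itself the gene altered by the knock-in, and the part of the altered allele in its value was not tested. Smooth muscle list means were 9.003 to 9.41 and 9.005 to 10.11, with no gene called and Lmod1 at the floor. Endothelial list means were 11.63 to 12.13 and 12.001 to 12.38, with Erg lower, and none of the 12 genes was under the filter. The microglia and macrophage list was the only marker list whose group ranges did not overlap, at 9.30 to 10.22 in mutants and 7.31 to 8.30 in controls, with 9 of 11 genes higher and Itgam at the floor. Neuron list means were 7.45 to 8.41 and 7.02 to 8.09, with none of 10 genes called. The astrocyte list (9.26 to 10.90 and 9.70 to 10.14), the oligodendrocyte list (7.34 to 8.96 and 7.85 to 8.08) and the choroid plexus list (8.87 to 10.03 and 8.99 to 10.61) likewise had no gene called. The part of the microglial rise in the ADAMTS values was not tested.

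Genes around the enzymes were tested as well, and nothing is read from the small count that passed. Of 59 tested genes in 7 lists of relatives, substrates, regulators and other metalloproteases, 1 passed limma's test, against 4.58% of all tested genes. That was Reck, a membrane-anchored inhibitor of metalloproteases that also serves Wnt7 signalling in brain endothelium. Reck read 8.85, 9.18, 9.06 and 9.40 on the mutant arrays and 9.68, 9.89, 9.81 and 9.96 on the controls. Every mutant lay below every control, and the difference was -0.71 (SE 0.129, limma adjusted p = 0.0188). The call was lost without mutant array 3 or without control array 2, 3 or 4, with limma adjusted p from 0.0583 to 0.0738.

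**Figure D4:**
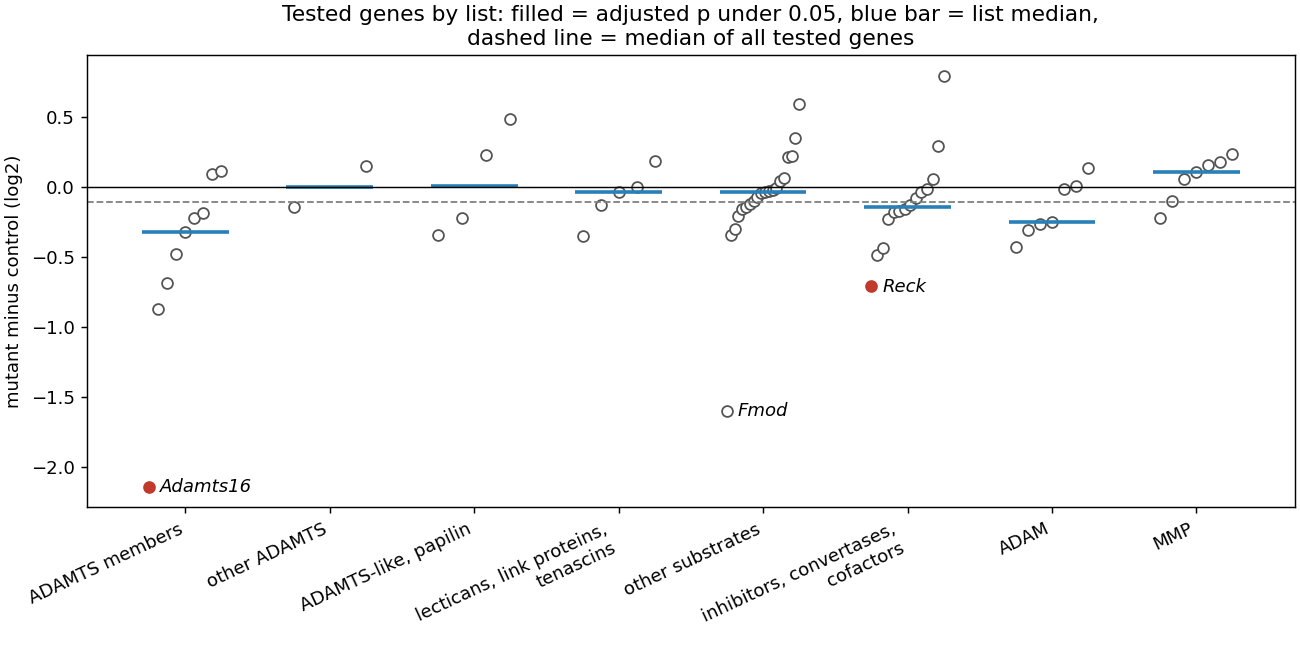
Mutant minus control difference on the log2 scale (vertical axis) for each tested gene of the ADAMTS family and of 7 related lists (horizontal axis). Filled points passed an adjusted p of 0.05, blue bars are list medians and the dashed line is the median of all tested genes, -0.11. Adamts16, which was selected on this contrast, and Reck are the filled points, and Fmod lies at -1.60 without passing.

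Of the 9 other ADAMTS proteases, 6 had a probe set and 2 were bright enough to test. Adamts8, which lies beside Adamts15 on chromosome 9 and also cuts proteoglycans, had a mutant mean of 6.07 ± 0.66 and a control mean of 5.92 ± 0.08. Adamts3, a procollagen and VEGF-C processing enzyme, had means of 4.60 ± 0.08 and 4.74 ± 0.23 (SD, n = 4 each). Neither passed (limma adjusted p of 0.802 and 0.525), and Adamts6, Adamts7, Adamts18 and Adamts19 were under the filter. Of the ADAMTS-like proteins, which lack the protease domain, 4 of 7 were tested and none passed. Adamtsl2 differed by -0.22 and Adamtsl3 by 0.48, and the list median was 0.00.

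No gene of the substrate lists passed. None of the 5 tested genes among lecticans, link proteins and tenascins passed, with a median difference of -0.04. Ncan, which encodes neurocan, had a mutant mean of 10.21 ± 0.84 and a control mean of 10.03 ± 0.44, and Tnc, tenascin C, means of 8.49 ± 0.56 and 8.62 ± 0.27 (SD, n = 4 each). Their low points among the mutants, 9.04 and 7.78, were again on array 1. Of 20 other substrates and matrix partners none passed, and the median was -0.04. Col3a1 and Col1a2, procollagen chains of the kind Adamts2 trims, differed by 0.35 (SE 0.148, limma adjusted p = 0.231) and 0.04 (SE 0.175, adjusted p = 0.91). Fmod, fibromodulin, a collagen-binding proteoglycan that Adamts4 can cut, is named here after its values were seen. It read 9.73, 10.67, 10.19 and 11.62 on the mutant arrays and 11.51, 12.11, 12.41 and 12.57 on the controls. Mutant array 4 overlapped the lowest control, and the difference was -1.60 (SE 0.403, limma adjusted p = 0.069).

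Of 14 inhibitors, convertases and cofactors tested, Reck was lower and none was higher, with a list median of -0.14. Timp3, the main tissue inhibitor of ADAMTS enzymes, averaged 10.36 ± 0.34 on mutant and 10.07 ± 0.14 on control arrays (SD, n = 4 each), and this difference of 0.30 did not pass (SE 0.171, limma adjusted p = 0.36). Of 7 ADAM genes, which encode membrane-bound relatives, none passed and the median was -0.25. Adam10 (-0.25, SE 0.083), Adam9 (-0.43, SE 0.175) and Adam17 (-0.26, SE 0.0954), the last named after its values were seen, had limma adjusted p of 0.147, 0.213 and 0.171. These 3 of 7 had groups without overlap and the mutants lower, against 10.4% of all tested genes. Of 7 matrix metalloproteases none passed and the median was 0.11, with Mmp14 at 0.11 and Mmp9 at 0.24.

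The 5 tested genes whose 8 centred log2 values lay nearest to those of Adamts16 were Hif3a, Nfatc2, Sfrp2, Col14a1 and Sytl2. Their root mean square differences from Adamts16 were 0.29, 0.42, 0.45, 0.49 and 0.50, against a median of 1.11 over all tested genes and 1.15 for a gene with no variation. Hif3a, a hypoxia-inducible factor subunit, read 3.45, 4.96, 3.63 and 4.59 on the mutant arrays and 6.29, 6.02, 6.08 and 5.89 on the controls. Like Adamts16 it was lower on mutant arrays 1 and 3 than on 2 and 4. On mutant arrays 1 and 3 Hif3a lay under the filter level of 4. The same order, arrays 1 and 3 under arrays 2 and 4, held for Nfatc2 and Sfrp2 and not for Sytl2. Col14a1 also read in that order, but under the filter level on all 4 mutant arrays, from 2.44 to 3.93. Its order there is therefore not resolved. By brightest probe set, 6 of the 9 ADAMTS genes had arrays 1 and 3 under arrays 2 and 4, as did 25.3% of all tested genes. They were Adamts5, Adamts9, Adamts12, Adamts15, Adamts16 and Adamts20. For Adamts5 and Adamts9 the margin was small, 6.11 under 6.16 and 8.94 under 8.98. Their second probe sets did not keep the order. Mutant arrays 1 to 4 read 5.96, 6.34, 6.37 and 5.86 for Adamts5, and 7.21, 7.03, 6.74 and 6.86 for Adamts9. The order of arrays 1 and 3 under 2 and 4 was noticed in the values themselves. These neighbours were found by the same contrast that chose Adamts16, so the likeness is a description.

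**Figure D5:**
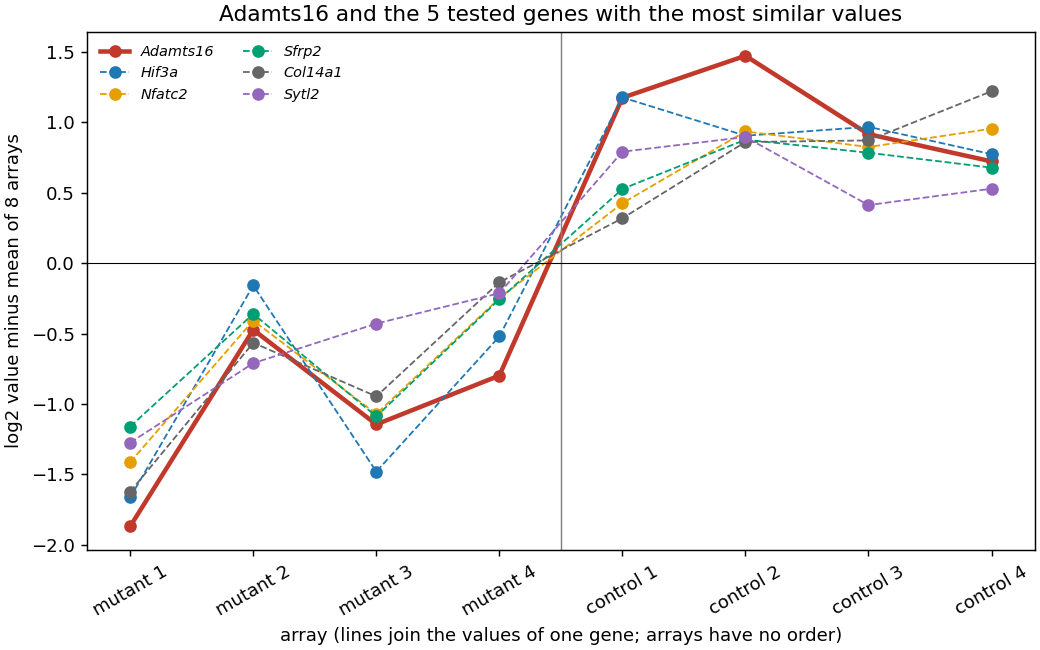
Log2 value minus the mean of the 8 arrays (vertical axis) on each array (horizontal axis) for Adamts16 (thick red line) and the 5 tested genes with the smallest root mean square difference from it, 0.29 to 0.50. All 6 genes lie above 0 on the 4 control arrays and below 0 on the 4 mutant arrays.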

How the data were processed

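Per the submitters' processing notes the authors made the values with GCRMA, which estimates background from probe sequence and normalizes arrays by quantiles, and its version is not given in the sources used here. The deposited values were taken as log2 from their range, 2.18 to 16.49. Dim probe sets collect at floors, which shrinks their differences. Genes were represented by the brightest probe set (highest mean of the 8 arrays), kept above 4 on at least 4 arrays, and tested two-sidedly in R 4.3.3 with limma 3.58.1 (lmFit, then eBayes), with Benjamini-Hochberg adjustment over all 11446 genes at 0.05. The fit was tested on simulated data.

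The genes and lists were chosen with earlier results of these data known. Text names every ADAMTS gene of the set, up to 4 called genes per related list or its 2 brightest, and the 5 genes most like Adamts16. A floor means within 0.5 of the lowest value. No source used here gives litter or batch, and the arrays' number, 4 per group, limits precision. Within groups Pearson correlations were 0.988 to 0.995, between groups 0.977 to 0.991. Y-linked transcripts read high on 3 of 4 mutant and 2 of 4 control arrays, so both groups held males and females. Alternatives were other filters, normalizations, probe set rules, a replicate block, a Y-linked covariate, trend and robust variances, and each array left out.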

Additional observations from a re-analysis of the deposited data

Results flagged for a closer look

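Adamts20 on mutant array 1, at 4.55 with the nearest mutant at 6.63, lay far from the other mutant arrays relative to the range of its group. Adamts12 on control array 1, at 7.16 with the nearest control at 7.47, did so among tightly grouped controls. Dixon's ratio was 0.924 and 0.925, above the 95% critical value for 4 arrays. Of the 18 groups of 4 arrays examined chance would mark about 1 in 20.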

How the results depend on the processing

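The fitted difference of Adamts16 ran from -2.34 to -1.09 over the 17 alternatives, the smallest from averaging in its floor probe set. The number of ADAMTS genes past the threshold was 1 in each, and since Adamts16 was selected on this contrast, that count is a description and no support. The sign turned for 2 genes, Adamts20 without mutant array 1 (0.23) and Adamts10 without control array 1 (0.05). The related lists had 1 call, 2 with the replicate block and 2 with the mean of the probe sets (Fmod with Reck), and from 0 to 2 when single arrays were left out. Over all tested genes 524 passed, 259 with the replicate block and from 264 to 540 with arrays left out, where the count was 264 without mutant array 3, 306 without control array 4 and 322 without control array 3. Deviations of same-numbered arrays correlated from -0.48 to 0.30 over genes. Differently numbered arrays were not compared, so whether replicate numbers pair the arrays is not known. Adamts4 and Adamts15 were under the stricter filter of 6 and have no value there. Values near the floor are not resolved.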
